A study of Mus musculus with 6 samples.

Results

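Trinucleotide simple repeats are DNA tracts in which a unit of 3 bases is copied in tandem. They were examined among the regions of a ChIP-seq study of PHF13, a chromatin reader with a PHD finger, which the library names call SPOC1. The authors deposited 1 list of 39096 regions in the mouse build mm10. A region was taken when it lay on chromosomes 1 to 19 or X and when the list named, at the region's centre, a simple repeat with a unit of 3 letters. This gave 273 regions of the 39096 (0.698%), and of the 23030 on chromosomes 1 to 19 and X they were 1.19% (Wilson 95% interval 1.05 to 1.33%). The libraries came from testis of C57Bl/6 mice aged 5 weeks. Of 3 SPOC1 ChIP libraries, 2 were labelled Phf13-/- and 1 wild type; of 3 input libraries, 1 was labelled Phf13-/- and 2 wild type. For the animal coded D821 the ChIP library was labelled Phf13-/- and the input wild type. The list holds 0 columns of values per library, so libraries could not be compared, replicate error could not be given and sequencing depth is unknown. Because most ChIP libraries carry the Phf13-/- label, the members are called regions and not binding sites. No test was made: regions of 1 list are not replicates, and all intervals cover counting error only.

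Microsatellites such as these change length readily when the copying of DNA slips. Tracts of GAA on one strand and TTC on the other are all purine (A and G) on one strand and all pyrimidine (C and T) on the other, and such mirror tracts can fold into H-DNA, a structure outside the standard helix. Short reads from a long tandem tract are hard to place at a unique position.

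The sequence of most members was not available, since no genome was used here. The exception was a table of promoter windows from RefSeq (GRCm38.p6, the assembly that mm10 names), each with 250 bases before and 50 after a gene start. It held 32619 windows of 26794 genes on 19 of the 20 chromosomes. Both strands of each window were searched for perfect tandem runs of GAA in any phase, and runs of at least 18 bases were found in 16 windows (0.0491%) at 15 separate places. At 2 of these places a trinucleotide region lay over the window. Both are shown, each with its run in capitals, because they show what the repeat names in the list stand for.
Gm32846, chr7:17426874-17427006, minus strand: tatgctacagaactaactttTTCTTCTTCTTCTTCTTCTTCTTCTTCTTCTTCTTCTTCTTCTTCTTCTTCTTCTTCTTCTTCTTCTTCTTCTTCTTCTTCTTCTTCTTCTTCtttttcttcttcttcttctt
Gm35667, chr3:127970691-127970778, plus strand: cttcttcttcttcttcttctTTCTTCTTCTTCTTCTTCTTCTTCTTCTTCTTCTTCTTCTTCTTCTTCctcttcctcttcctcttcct
The run at the lncRNA gene Gm32846 had 31 copies (93 bases) and lay inside a region named for GAA (chromosome 7, 17426668 to 17427168), with a score of 5.31, or 10.6 per kb; this score was deposited by the authors and has no stated unit. It lay before the start of the gene, and the region's centre was 98 bp from that start. The run at the lncRNA gene Gm35667 had 16 copies (48 bases) and lay inside a region named for TTC (chromosome 3, 127970372 to 127970872, score 5.52, 11.0 per kb), with its centre 299 bp from the nearer of 2 starts. In both cases the name in the list gave the letters of the plus strand.

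A long run did not by itself place a window in the list. The 13 other places had no region of any kind within 5 kb, and 10 of them had runs of at least 30 bases. In 6 of these the whole run lay in the window and had 39 to 93 bases. In the other 4 the run was cut by the window's edge, so that its 51 to 84 bases are a lower bound. The next 3 sequences are from the 13 places without a region, again with the run in capitals. None of these 3 runs was cut by the window's edge.
Gm31145, chr4:23823984-23824116, minus strand: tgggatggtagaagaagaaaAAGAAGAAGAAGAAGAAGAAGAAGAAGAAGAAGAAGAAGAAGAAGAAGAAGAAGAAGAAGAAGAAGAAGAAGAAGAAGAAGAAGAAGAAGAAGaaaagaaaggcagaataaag
Gm32846, second start, chr7:17447047-17447176, minus strand: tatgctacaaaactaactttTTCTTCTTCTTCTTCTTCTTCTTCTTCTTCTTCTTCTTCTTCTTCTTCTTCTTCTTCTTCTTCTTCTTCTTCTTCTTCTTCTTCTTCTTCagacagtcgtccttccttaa
Gm32772, chr7:17366539-17366592, minus strand: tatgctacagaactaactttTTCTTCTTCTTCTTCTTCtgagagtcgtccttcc
Gm31145 on chromosome 4 had a run of 93 bases, as long as that at the first Gm32846 start. The second start of Gm32846 had 90 bases. These are lengths of perfect runs, and a tract can be longer. In the printed flanks more copies follow the run at the first Gm32846 start and precede the runs at Gm35667 and Gm31145. No further copies stand beside the run at the second Gm32846 start. Whole tracts were not compared. The 20 bases before the run at the first Gm32846 start were the same at all 20 positions in Gm32772 and differed at 1 position at the second start, so these 3 windows of chromosome 7 share that flank beside runs of 93, 18 and 90 bases. A region was listed at the run of 93 alone. The placement of reads among such near-copies is uncertain. By windows, 3 of 16 with a run (18.8%, with 2 overlapping windows at Gm35667) met a region, against 0.107% of all windows. The plot of run lengths gives all 15 places.

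**Figure D1:**
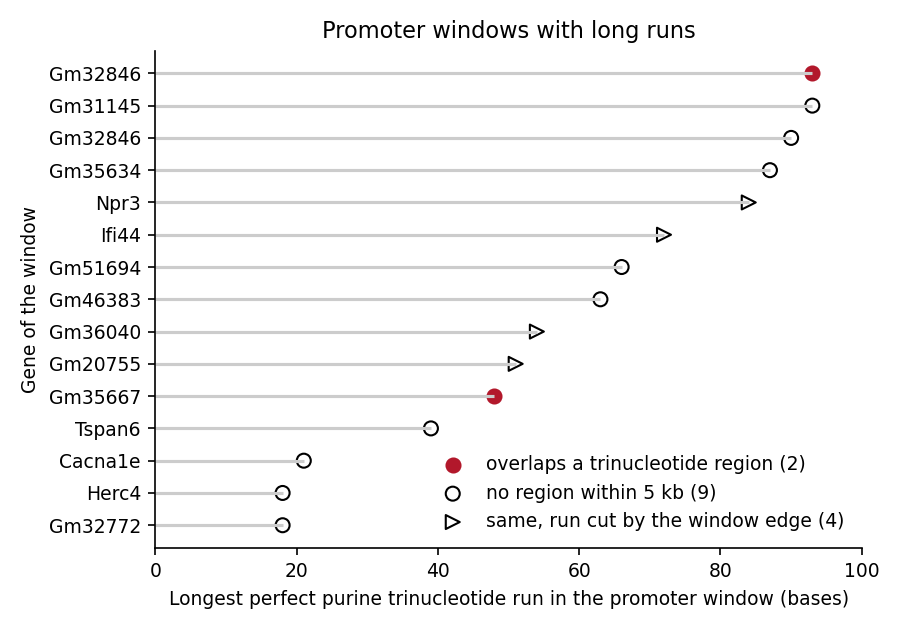
Longest perfect GAA or TTC run (x axis, bases) in each of 15 promoter places with at least 18 bases, by gene; filled points overlap a trinucleotide region, open points have no region within 5 kb, and open triangles are such runs cut by the window's edge. The 2 filled points stand at 93 and 48 bases, the 9 open circles run from 18 to 93 bases, and the 4 triangles, at 51 to 84 bases, are lower bounds.

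Almost all members were purine tracts of a single kind. The unit was GAA in 138 regions and TTC in 129, which are the same tract read on opposite strands and together made up 97.8% of the members (95.3 to 99.0%). Another pair, 1 named GGA and 1 named TCC, is purine on one strand too. Purine units were thus 269 of 273 (98.5%, 96.3 to 99.4%). The remaining 4 were 2 named TTA, 1 named TAA and 1 named CCG. When rotations and opposite strands are joined there are 10 possible trinucleotide classes, of which 4 had a member. The other 6 had 0 of 273 each, which allows a share of up to 1.10%. Among them is the class of the CAG and CTG tracts, which expand in several human disorders such as Huntington disease. The list holds no count of tracts in the genome, so these shares are not enrichments.

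Units of 2, 4, 5 and 6 letters on the same chromosomes were less uniform. Purine units were 98.5% of the trinucleotide regions, against 24.3% of 716 tetranucleotide regions (21.3 to 27.6%), where the TAGA and TCTA class led with 492. They were 64.8% of 54 dinucleotide regions (51.5 to 76.2%), 40.9% of 93 regions with units of 5 letters (31.4 to 51.0%) and 58.6% of 58 with units of 6 (45.8 to 70.4%). The intervals of these 4 unit lengths did not overlap that of the trinucleotides. The single region with a unit of 1 letter was purine too, with an interval of 20.7 to 100% that does overlap it. Members made up 22.8% of the 1195 simple repeat regions (20.6 to 25.3%).

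The members were short and had low scores. The length was exactly 500 bp in 211 of 273 (77.3%, 72.0 to 81.9%), against 37.0% of all regions on these chromosomes. Other repeats shared this trait. The share was 74.3% among tetranucleotide regions (71.0 to 77.4%) and 70.5% among other simple or low-complexity repeats (64.8 to 75.7%). No member was shorter, and the next length was 625 bp. Among tetranucleotide regions 500 bp was the shortest length too, while the shortest of all regions on these chromosomes had 324 bp. How lengths were set is not given, so 500 bp need not be the extent of a tract. The 62 longer members had a median of 642 bp, and 5 were longer than 1 kb. The score had a median of 6.37 (6.16 to 6.80) and ran from 4.46 to 23.1. The median score was 7.01 among tetranucleotide regions (6.80 to 7.22) and 7.01 among other simple or low-complexity repeats (6.58 to 7.65). Only 3 of 273 members reached the median score of all regions on these chromosomes, 19.1, which 50.3% of those regions reach by construction. At or under the score that marks off the lowest 25% lay 257 members (94.1%), against 25.9% of all regions (ties add to the 25%). The members covered 0.583% of the length of all these regions and held 0.259% of their summed score.

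All scores under 10 were whole multiples of a step of 0.2124 (within 0.005), as whole counts times a constant would be, and members stood 21 to 109 steps above 0. If a step were 1 tag, the median member would have 30 tags (95% Poisson interval 20.2 to 42.8), and the intervals of 220 of the 273 members would hold that median. On that assumption most members could not be ranked against the median one. The member with the highest score, at 109 steps (89.5 to 131), stood apart from that median.

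Longer members had higher scores, and a little more score per kb. The 62 longer members had a median score of 10.5 (5.95 to 23.1 in all) and the 211 of 500 bp had 5.95 (4.46 to 12.5). Divided by length, the medians were 14.1 and 11.9 per kb. Over the 273 members, Pearson's r between log2 length and log2 score was 0.71 and Spearman's rho 0.594, as a description over regions of 1 list. Since 211 lengths are tied at 500 bp, both values rest largely on the 62 longer members set against that 1 length.

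**Figure D2:**
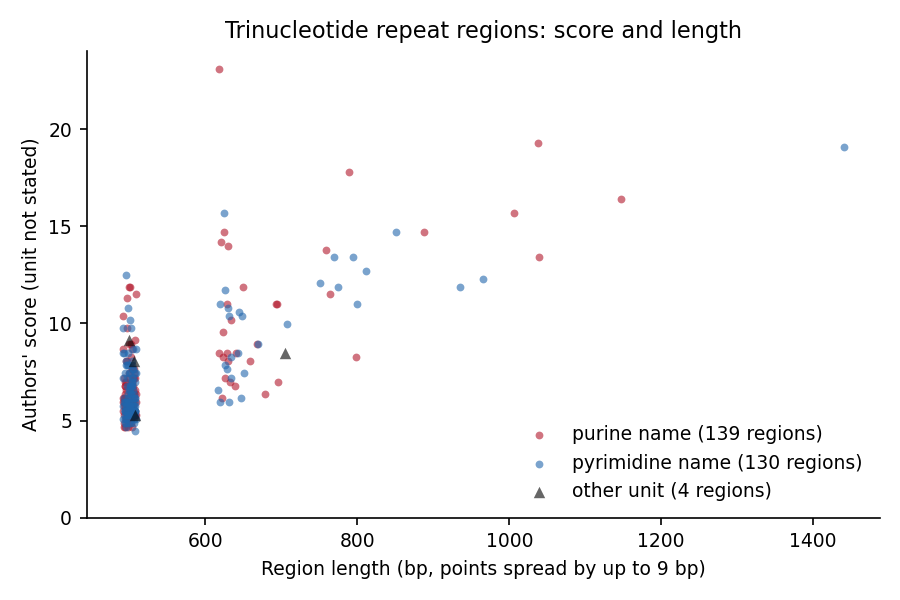
Authors' score against region length (bp) for the 273 members, with purine-named (139), pyrimidine-named (130) and other units (4) marked. The column of points at 500 bp holds 211 members, and the purine-named and pyrimidine-named points overlap over most of the range.

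Regions named for the purine and for the pyrimidine strand had overlapping intervals. Regions named GAA had a median score of 6.37 (5.95 to 6.80) and 12.3 per kb (11.9 to 12.9), and regions named TTC had 6.58 (5.95 to 7.01) and 12.5 per kb (11.9 to 13.2). At 500 bp were 76.8% of the GAA and 77.5% of the TTC regions. Within the GAA and TTC class the score per kb ran from 8.92 near Slfn9 (TTC, chromosome 11, 82997350 to 82997850), a schlafen family gene, to 37.0 near Col6a4. Purine units as a whole had a median of 12.3 per kb in 269 regions, against 14.1 in the 4 others, a ratio of 0.871 that rests on those 4 and is not read further.

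None of the 4 members with other units was among the first 10 by score or by score per kb. By score, the CCG region ranked 49 of the 273 members, the TTA regions 63 and 74, and the TAA region 242. By score per kb these ranks were 22, 147, 47 and 233, in the same order. The CCG region (chromosome 13, 24726035 to 24726535) lay in the last intron (22 of 22) of Ripor2 and had a score of 9.13, or 18.3 per kb. The start nearest to it by the list, 35.7 kb away, was that of Gmnn, which encodes the replication inhibitor geminin. Of the 2 TTA regions, 1 lay in an intron of Pramel42 (chromosome 5, 94535066 to 94535765, score 8.49) and 1 was intergenic, 6.20 kb before the predicted gene Gm10377 (chromosome 14, 43021521 to 43022021, score 8.07). The TAA region on X (27479846 to 27480346, score 5.31) was annotated as intronic, with the start of Gm10058 14.8 kb away. The intergenic GGA region, 23.7 kb before the receptor gene Gpr6 (chromosome 10, 41095005 to 41095505), had 7.22, and the intergenic TCC region 12.4 kb before Gm10413 (chromosome 14, 3382453 to 3382953) had 5.95.

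Of the 10 members with the highest scores, 6 were intergenic and 4 lay in introns. The first by score and by score per kb lay 15.5 kb before the start of the collagen VI gene Col6a4 (GAA, chromosome 9, 106111894 to 106112519), with a score of 23.1, or 37.0 per kb. Its rank by score in the whole list was 14912. Next by score came a GAA region in intron 1 of Dgki, a diacylglycerol kinase gene (chromosome 6, 37206641 to 37207683, score 19.3), and a TTC region of 1440 bp, the longest member, near the olfactory receptor gene Olfr467 (chromosome 7, 107808438 to 107809878, score 19.1). An intergenic GAA region on chromosome 15, 147 kb before the start of Tmem74, followed with 17.8. The others of the first 10 had scores of 14.7 to 16.4. Of these, 2 lay in intron 1 of Gm1966 and of Ust, and 1, whose nearest start was that of 1700017D01Rik, lay in intron 4 of Ms4a20. The remaining 3 were intergenic, with the nearest start 35.5 kb away at 4930553E22Rik, 325 kb at 4930528P14Rik and 464 kb at 1700009N14Rik. By score per kb the second was the TTC region in intron 1 of the predicted gene Gm1966 (chromosome 7, 106637784 to 106638410, 25.1 per kb). A region in intron 7 of Ror2, a receptor kinase gene, had 23.8 per kb; its nearest start by the list was that of Nfil3, 133 kb away. The regions listed with 4930528P14Rik and Tmem74 had 23.5 and 22.7 per kb. The remaining 5 were intergenic and are listed with Gm16863 (25 per kb, 57.3 kb from the start), E030044B06Rik (23.8 per kb, 11.0 kb), Daf2 (23.0 per kb, 78.7 kb), C030007H22Rik (22.7 per kb, 5.48 kb) and Mtdh (22.6 per kb, 87.0 kb). Of these 10, 8 were named GAA and 2 TTC, against 50.5% GAA and 47.3% TTC over all members. So few regions are not read further.

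Against the rest of the list the members stood low, and against other simple repeats they did not stand apart. The median score per kb was 12.3 for trinucleotide regions (11.9 to 12.9), against 28.5 for the 21773 regions off simple and low-complexity repeats (28.4 to 28.7). The region near Col6a4 was the single member above 28.0 per kb, the median of all regions on these chromosomes. Tetranucleotide regions had 13.2 (12.7 to 13.6) and other simple or low-complexity repeats 12.4 (11.9 to 13.1). No region on these chromosomes had under 8.19 per kb, and the lower quartile was 11.0 in each of these 3 repeat classes. Their medians thus lie near the low end of the list, where classes have little room to differ. The upper end differed more: the highest member had 37.0 per kb, against 144 among tetranucleotides and 466 among the others. Among purine tracts of other unit lengths the medians lay near that of the members. The 168 GAAA or TTTC regions had 12.3 (11.5 to 12.7), the 35 GA or TC regions 12.7 (11.2 to 15.3) and the 33 GGAGAA or TTCTCC regions 11.0 (10.9 to 11.9), while the 492 TAGA or TCTA regions had 13.5 (12.9 to 13.7).

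**Figure D3:**
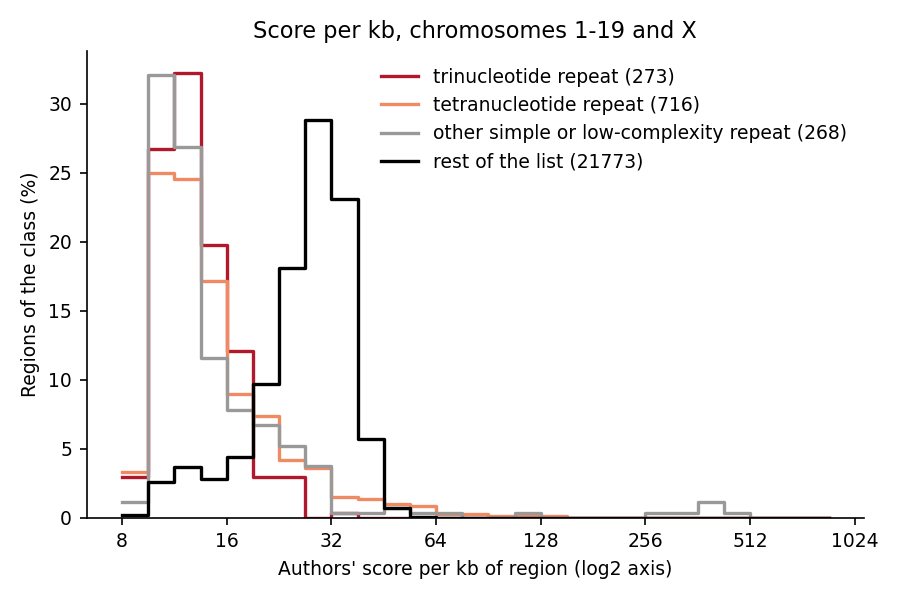
Share of regions (y axis, %) by the authors' score per kb (log2 axis) for trinucleotide, tetranucleotide, and other simple or low-complexity repeats and for the rest of the list on chromosomes 1 to 19 and X. The 3 repeat classes peak between 8 and 16 and have medians of 12.3, 13.2 and 12.4, and the rest of the list has a median of 28.5.

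By the authors' annotation 205 members were intergenic (75.1%, 69.6 to 79.8%) and 68 intronic (24.9%, 20.2 to 30.4%). None of the 273 was in an exon, a UTR, a promoter or a termination site, which allows a share of up to 1.10%; these classes held 0.491% of the rest of the list, so a lack was not detectable. The intronic share was 27.8% among tetranucleotides (24.6 to 31.2%), 31.3% among other simple or low-complexity repeats (26.1 to 37.1%) and 20.6% in the rest of the list (20.1 to 21.1%). Intronic and intergenic members had nearly the same score per kb, with medians of 12.5 (11.9 to 13.6) and 12.3 (11.9 to 12.7).

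A host gene whose span holds the region was found for 66 of the 68 intronic members. They lay in 64 host genes, of which 60 were protein-coding, and these were long genes. The protein-coding host genes had a median length of 270.1 kb (129 to 411 kb), against 17.3 kb over all 21631 protein-coding genes of these chromosomes. A longer gene has more intron in which a region can fall. The protein-coding hosts of tetranucleotide regions had a median of 197 kb (141 to 256 kb) and those of the rest of the list 143 kb (132 to 151 kb). Of the 60, 19 were longer than 500 kb, as were 227 of all protein-coding genes (1.05%). The host genes named here and in the next paragraph were chosen after their values were seen.

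The 4 longest host genes are given first. Cntnap2, a neurexin family gene, held a GAA region in intron 3 of 23 (score 7.65). Lrp1b, of the LDL receptor family, held a TTC region in intron 5 of 90 (6.80), and Csmd1 a GAA region in intron 1 of 69 (7.01). Magi2, which encodes a synaptic scaffold protein, held a GAA region in intron 2 of 22 (5.10). These scores lie within the range of the other members. A pair of genes had 2 members each. Hdac9, a histone deacetylase gene, held 2 GAA regions in intron 2, 51412 bp apart by their centres (8.07 and 5.95). Stk39, a kinase gene of ion transport control, held a TTC region in intron 1 (13.4) and a GAA region in intron 5 (6.16), 55014 bp apart by their centres.

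The first intron held 15 of the 68 (22.1%, 13.8 to 33.3%). For 46 intronic GAA or TTC members the strand of the host gene was known from the promoter table. Taking the name as the letters of the plus strand, as in both sequences above, the purine strand was the sense strand of the gene in 21 and the antisense strand in 25 (45.7% sense, 32.2 to 59.8%), an interval that holds 50%.

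A small share of members lay within 10 kb of the start site of a gene, though a larger share than in the rest of the list. The median distance to a transcription start site (TSS) was 83.9 kb (53.8 to 104 kb), with quartiles of 23.3 and 248 kb and a largest value of 1484 kb. The median was 92.7 kb among tetranucleotides (78.3 to 105 kb) and 109 kb in the rest of the list (106 to 112 kb). Within 10 kb lay 35 members (12.8%, 9.36 to 17.3%), against 10.6% of tetranucleotides (8.56 to 13.1%) and 6.47% of the rest of the list (6.15 to 6.81%). Of these 35, 24 lay before the start and 11 after it, a split that was not compared with that of other regions. Their median of 11.9 per kb (11.0 to 14.4) was close to the 12.4 of the members farther away (11.9 to 13.2). None lay within 1 kb by the list.

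The 15 nearest to a start were led by a TTC region 1122 bp before Gbf1, which activates Arf proteins at the Golgi (chromosome 19, 46151186 to 46151686, score 8.49). A TTC region 1905 bp after the start of Afm, the gene of the plasma protein afamin (chromosome 5, 90520529 to 90521179), had 7.43. Slc5a11, a sodium and inositol cotransporter gene, had one with 5.52 at 2039 bp before it (chromosome 7, 123212577 to 123213077). Further ones lay before Olfr1420 (2126 bp, score 4.67), Vmn2r113 (2272 bp, 5.31), the receptor phosphatase gene Ptprg (2599 bp, 5.31), Nlrp2 (2922 bp, 5.31), Gm13547 (3163 bp, 6.37) and the zinc finger gene Zfp959 (3361 bp, 4.67). Spag16, which encodes a protein of the sperm tail, had a TTC region 3681 bp before its start (chromosome 1, 69823039 to 69823539) with 9.77, or 19.5 per kb. Of the 15 nearest, 1700018B08Rik had the highest score (11.5, at 3862 bp after the start). Aldh1a7, Rnf103, Metap1 and the receptor kinase gene Tyro3 had 5.52 to 8.07 at 3597 to 4401 bp before their starts.

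The list's annotation leaves out some starts of the RefSeq promoter table. By that table, 4 of the 259 members off chromosome 18 had their centre within 1 kb of a start, all of lncRNA genes that the list did not name there. They were Gm32846 and Gm35667, described above, Gm40043 (645 bp; chromosome 3, 50712283 to 50712783, score 5.10) and Gm31359 (717 bp; chromosome 3, 85401132 to 85401632, score 5.73). Within 10 kb lay 48 of these 259 by the table (18.5%), against 35 by the list (13.5%).

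**Figure D4:**
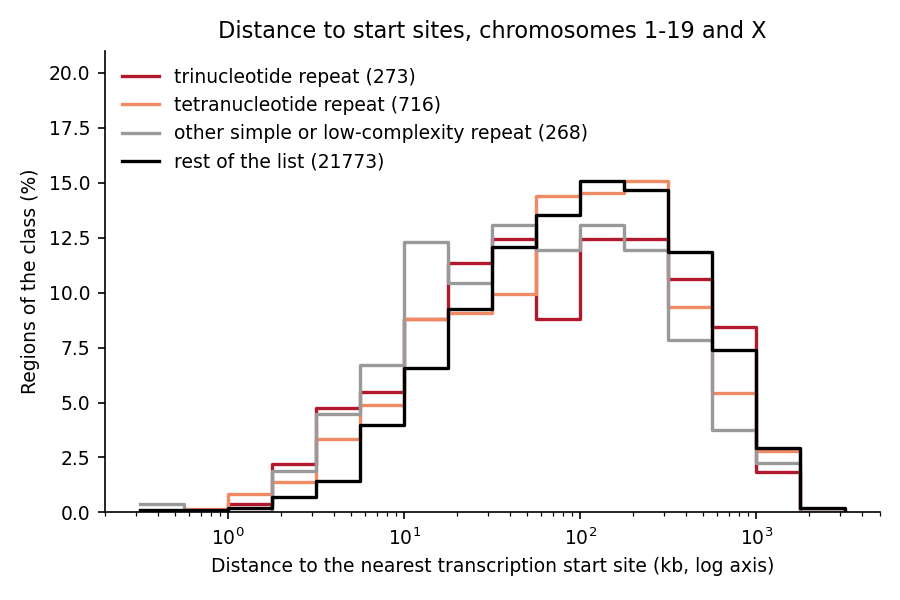
Share of regions (y axis, %) by distance to the nearest transcription start site (kb, log axis; the first bin also holds shorter distances) for the 4 classes of regions. Trinucleotide regions have a median of 83.9 kb, tetranucleotides 92.7 kb, other simple or low-complexity repeats 59.4 kb and the rest of the list 109 kb. The curves overlap widely.

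No gene stood out as a neighbour of many members. The 273 members had 255 different nearest genes, 0 genes were nearest to 3 or more members and 18 were nearest to 2. The nearest gene was protein-coding for 214 members and non-coding for 52. Olfactory receptor genes were nearest to 4 members (1.47%, 0.571 to 3.71%), against 1.95% of the rest of the list. Vomeronasal receptor genes were nearest to 3 members (1.10%, 0.374 to 3.18%), against 2.10% of the rest, and Zfp genes to 3, against 0.960% of the rest. Each of these shares of the rest lay within the members' interval. In 4 lists of genes of the testis, 0 genes were the nearest gene or the host of a member. These were 25 genes of meiotic prophase, 17 of spermatogonia, 20 of spermiogenesis and 17 of the piRNA pathway. Any region on these chromosomes had as its nearest gene 3 of the meiotic, 3 of the spermatogonial, 3 of the spermiogenesis and 4 of the piRNA genes.

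Members lay farther from other regions than the rest of the list did, as did tetranucleotides and other simple or low-complexity repeats. The spacing that so few regions would have if placed at random was not worked out. The nearest other region of the list was a median of 55.0 kb away (49.8 to 65.2 kb), against 53.6 kb for tetranucleotides (46.3 to 61.3 kb) and 4.28 kb for the rest of the list (4.15 to 4.46 kb). A region at an L1 element lay within 10 kb of 18 members (6.59%, 4.21 to 10.2%), against 8.66% of tetranucleotides (6.81 to 10.9%) and 14.3% of the rest of the list that was not itself at L1 (13.4 to 15.3%). For other simple or low-complexity repeats the nearest other region was a median of 49.3 kb away (38.9 to 61.5 kb). Of these repeats, 9.33% had an L1 region within 10 kb (6.40 to 13.4%). The nearest other member was a median of 2.55 Mb away, and 12 members had another within 100 kb. Pairs within 10 kb were 2. The first was 2 TTC regions 2876 bp apart by their centres near Igsf11 on chromosome 16 (scores 7.86 and 10.8). The second was a TTC and a GAA region 5665 bp apart before Vmn2r113 on chromosome 17 (both 5.31).

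X held few members. On X there were 5, or 0.156% of its 3211 regions (0.0665 to 0.364%), against 268 on the autosomes, 1.35% of 19819 (1.20 to 1.52%). Per Mb, X had 0.0298 (95% Poisson interval 0.00969 to 0.0696), against an autosomal mean of 0.115 ± 0.0281 (SD, n = 19 autosomes). The autosomes ran from 0.0673 on chromosome 11 to 0.160 on chromosome 18, so X was below all of them, with an interval that reached the lowest. Tetranucleotide regions also were fewer on X, at 0.143 per Mb against 0.289 ± 0.0670 on the autosomes (SD, n = 19). All regions together went the other way, with 19.2 per Mb on X and 5.27 to 9.94 on the autosomes. As a share of a chromosome's regions, members ranged from 0.813% on chromosome 1 to 2.62% on chromosome 19 among the autosomes. These 2 extremes of 19 had intervals of 0.485 to 1.36% on chromosome 1 and 1.38 to 4.90% on chromosome 19, which just missed each other.

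**Figure D5:**
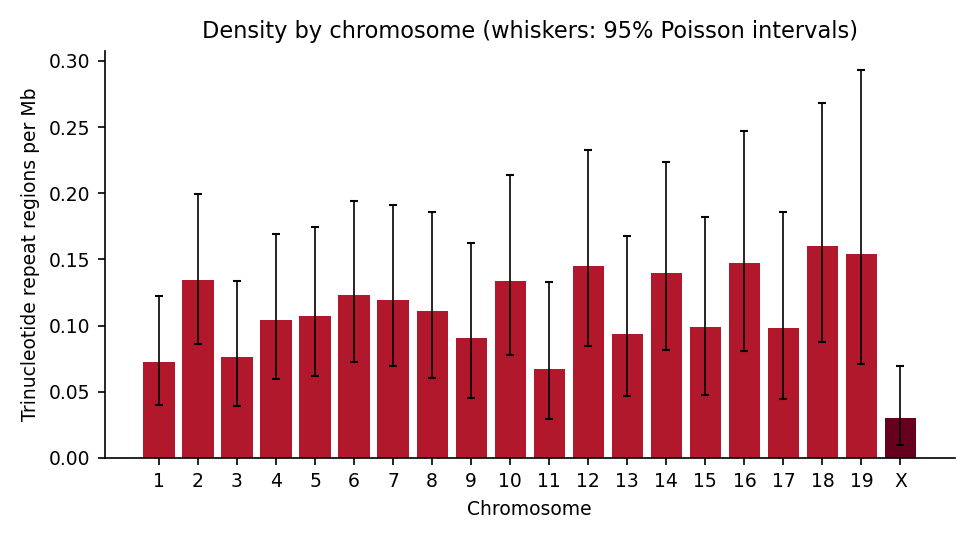
Trinucleotide repeat regions per Mb (y axis) on each of chromosomes 1 to 19 and X, as bars with 95% Poisson intervals as whiskers. The autosomes run from 0.0673 to 0.160 per Mb, and X, at 0.0298, is the lowest bar.

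Along the chromosomes the second of 4 equal parts held the most members and the first the most of the rest of the list. From the centromere end onwards, these parts held 21.6%, 32.6%, 22.0% and 23.8% of the members, against 31.0%, 26.4%, 24.8% and 17.8% of the rest of the list. The counts of members were 59, 89, 60 and 65. These shares have no intervals and were not compared with those of other simple repeats, so they are not read further.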

How the data were processed

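The authors deposited 1 list of regions for 3 SPOC1 ChIP and 3 input libraries. Per the file headers it was written by HOMER's annotation program on mm10. The submitters' processing notes name Bowtie2 2.2.2, SAMtools and HOMER 4.6. What each did, which libraries were pooled and how regions were called are not given in the sources used here. Each score is the authors' deposited value per region, with no stated unit; length and TSS distance are in bp. The list has 0 columns of values per library.

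From the list, score was divided by length, because it grows with length. Shares have Wilson 95% intervals, medians binomial order-statistic intervals and densities Poisson intervals. A chromosome's span is the stretch between its outermost genes or regions. Host genes were matched by transcript accession (68 of 68) and kept where the gene's span holds the region's centre (66). The run search, the distances and the intervals of medians were tested on simulated data, and the Wilson and Poisson intervals were not. A purine unit holds only A and G, or only C and T. The text names the first 10 regions by score and by score per kb, the 15 nearest to a TSS, genes nearest to 3 or more members, listed genes, and the extremes of unit classes. Genes of the promoter sequences, of the other units, of close pairs and of table starts were named after their values were seen. Members and lists were chosen with earlier results of these data known. Alternatives were other chromosomes, score thresholds, lengths, bins, windows and gene sources. Software comprised Python 3.11.15 with matplotlib 3.10.9, SciPy 1.17.1, NumPy 2.4.6 and pandas 2.3.3. A further gene list is not reported here.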

Additional observations from a re-analysis of the deposited data

How the results depend on the processing

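Only the 50% of the list with the higher score changed nearly all values, since it kept 4 members: the purine share was then 100%, the median length 912.5 bp, the median score per kb 20.6 and the share within 10 kb of a TSS 25%. The 10% with the highest score held 0 members. Without regions of exactly 500 bp, 62 members remained, with a median of 642 bp, higher by construction, and of 14.1 per kb. With chromosome Y and unplaced contigs the purine share was 92.9%, and purine members were 723 bp shorter than others by their medians (difference -723 bp). The ratio of score per kb, purine over other units, was 0.871; it turned to 1.06 with Y and to 1.17 without 500 bp regions, and rests on 4 regions with other units, on 24 with Y and on 1 without 500 bp regions. Undivided by length, the median score was 6.37. Within 1 kb of a TSS lay 0% and within 50 kb 42.5%; by the RefSeq promoter table, chosen after seeing the data, 18.5% lay within 10 kb. Leaving out X and keeping one region per 100 kb moved no value beyond its interval. The alternative of adding low-complexity tracts was not run, since none has a unit of 3 letters. No test was made, so no call could change. No paired analysis was possible because single libraries have no values in the deposited table. The depth of the libraries is unknown.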

Other observations

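Chromosome Y had trinucleotide regions of another make-up. Purine units were 98.5% of the 273 regions on chromosomes 1 to 19 and X, against 70.1% of the 67 on Y (58.3 to 79.8%). TAA and TTA were named at 3 of the 273 and at 17 of the 67 on Y (25.4%, 16.5 to 36.9%). The length was 500 bp for 77.3% of the 273, against 20.9% on Y (12.9 to 32.1%), where the median was 938 bp (699 to 1203 bp) and the longest region 5649 bp. The median score per kb was 12.3 for the 273 and 12.1 on Y (11.5 to 12.9). On Y, the 17 TAA or TTA regions had a median length of 1418 bp (1168 to 2220 bp) and the 47 GAA or TTC regions 831 bp (641 to 1134 bp). A TTC region on Y (11857605 to 11858471) had 95.2 per kb, above the 37.0 of the highest member on the other chromosomes. Much of Y consists of near-copies, among which reads are hard to place.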
